A study of Homo sapiens with 24 samples.

Results

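Tubulins and microtubule-associated proteins were followed in 3D aggregates of LUHMES cells, a human fetal midbrain line whose proliferation is switched off by tetracycline and which then becomes post-mitotic dopaminergic neurons. The group was a list of 46 genes. It comprised the alpha-, beta-, gamma-, delta- and epsilon-tubulins, the structural microtubule-associated proteins, stathmins, doublecortins, collapsin response mediator proteins, tubulin folding cofactors, tubulin-modifying enzymes and end-binding proteins. Members were found on the arrays through the RefSeq accession of each probe, and the probes of a gene were averaged. This gave values for 45 of the 46 genes, out of 21235 genes tested. No accession was matched to TUBB6, which was not analysed here.

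Microtubules are hollow polymers of alpha- and beta-tubulin dimers and form the tracks and struts of axons and dendrites. Gamma-tubulin nucleates them, folding cofactors assemble the dimers, structural proteins such as MAP2 and tau stabilize the lattice, and stathmins sequester free dimers. Rotenone inhibits mitochondrial complex I and is also known to bind tubulin and to inhibit microtubule assembly. Cells are known to adjust the stability of tubulin mRNA to the amount of free tubulin dimer.

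Aggregates received rotenone on day 7 of differentiation, and RNA was taken from wells harvested directly at the end of exposure (day 8) and from wells that recovered in rotenone-free medium for 7 days (day 15). On each day there were 4 groups of 3 wells, exposed to DMSO as the vehicle control, to 50 nM rotenone for 12 h, to 50 nM for 24 h or to 100 nM for 24 h. All 8 groups came from the same cell line in differentiation medium with cAMP, GDNF, tetracycline and N2, and the DMSO controls carried as much DMSO as the 100 nM wells. RNA was labeled with Cy3 and hybridized to 24 single-color Agilent arrays, 1 per well. The labels give no exposure time for the DMSO wells, so that the 12 h group was compared with the same DMSO arrays as the 24 h groups. For replicate 1 of the day 15 DMSO group the scan file is not named as DMSO, and the sample label was followed. Nothing states that wells came from separate cultures, so that the p values measure the spread between these wells, which may be technical. In bulk RNA, fewer cells of a type and less RNA per cell cannot be told apart.

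Between 50.9% and 82.4% of the non-control spots of an array were well above background, with the highest shares on slide 1, which held replicate 1 of every group. The 45 genes were represented by 76 probes, 25 genes by 1 probe and 20 genes by up to 5. All 45 had at least 1 probe well above background on all 24 arrays, against 12941 of the 21235 genes tested, and 0 spots were saturated. Of 10 general neuronal markers, 10 were well above background on every array. The same held for 7 of 10 dopaminergic markers, 0 of 7 astrocyte markers and 0 of the 6 microglial markers tested. It also held for 4 of 10 cycling markers, 4 of the 7 progenitor markers tested and 2 of the 6 oligodendrocyte markers tested. All signals below are normalized log2 values that can be compared between arrays for 1 gene, but not between genes. Close paralogs such as TUBA1A, TUBA1B and TUBA1C, which lie together on chromosome 12, or TUBB2A and TUBB2B on chromosome 6, have nearly identical coding sequences, and cross-hybridization between them was not tested.

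On day 8, directly after 24 h with 100 nM rotenone, 10 of the 45 microtubule genes were lower than in DMSO and 1 was higher at a Benjamini-Hochberg adjusted p under 0.05 (limma, over all genes tested). This was 24.4% of the members, beside 9.52% of all genes tested (5.43% lower and 4.09% higher) and 14.7% of the genes well above background on all arrays. The lower genes were the beta-tubulins TUBB, TUBB2A, TUBB2B and TUBB4B, the structural proteins MAP1A, MAP2 and MAP6, the doublecortin-like kinase DCLK1, the collapsin response mediator DPYSL4 and the folding cofactor TBCC. The folding cofactor TBCD was higher. Only MAP1A passed a fold change of 1.5 as well, a threshold that 3.48% of all genes passed. The changes were thus small, with a median over the 45 members of -0.18 on the log2 scale beside -0.02 over all genes. Of the members, 77.8% lay below zero, against 53.5% of all genes, and in 18 members every array with 100 nM was below every DMSO array (40% against 15.9% of all genes). Unlike all genes, the 45 members were all well above background on all arrays. The part of detection in these shares was not tested. Scaling to the 75th percentile of each array in place of quantile normalization gave a member median of -0.09 with 1 gene higher and 8 lower. The count of 11 fell to 7 without day 8 DMSO replicate 2 and to 7 without 100 nM replicate 3.

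With 50 nM for 24 h, 12 members were lower and 1 was higher, 28.9% of the members beside 8.01% of all genes (4.36% lower, 3.65% higher) and 12.5% of the well detected genes. With 50 nM for 12 h, 6 were lower and 1 was higher, 15.6% beside 5.52% (2.85% lower, 2.67% higher) and 8.67%. The member medians were -0.26 and -0.1 on the log2 scale. All 3 comparisons share the DMSO arrays of day 8, so that their calls are not independent of each other. TUBB, TUBB2A, TUBB4B, MAP1A and TBCC were lower and TBCD was higher in each of them. Under scaling to the 75th percentile, 50 nM for 24 h gave 2 genes higher and 6 lower, with a median of -0.11. Left-out arrays moved both counts. For 50 nM for 24 h the count was 6 without DMSO replicate 1 or replicate 2, 5 without 50 nM replicate 1 and 7 without 50 nM replicate 3. For 12 h it was 3 without DMSO replicate 1 and 4 without DMSO replicate 2, 50 nM replicate 2 or 50 nM replicate 3.

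**Figure D1:**
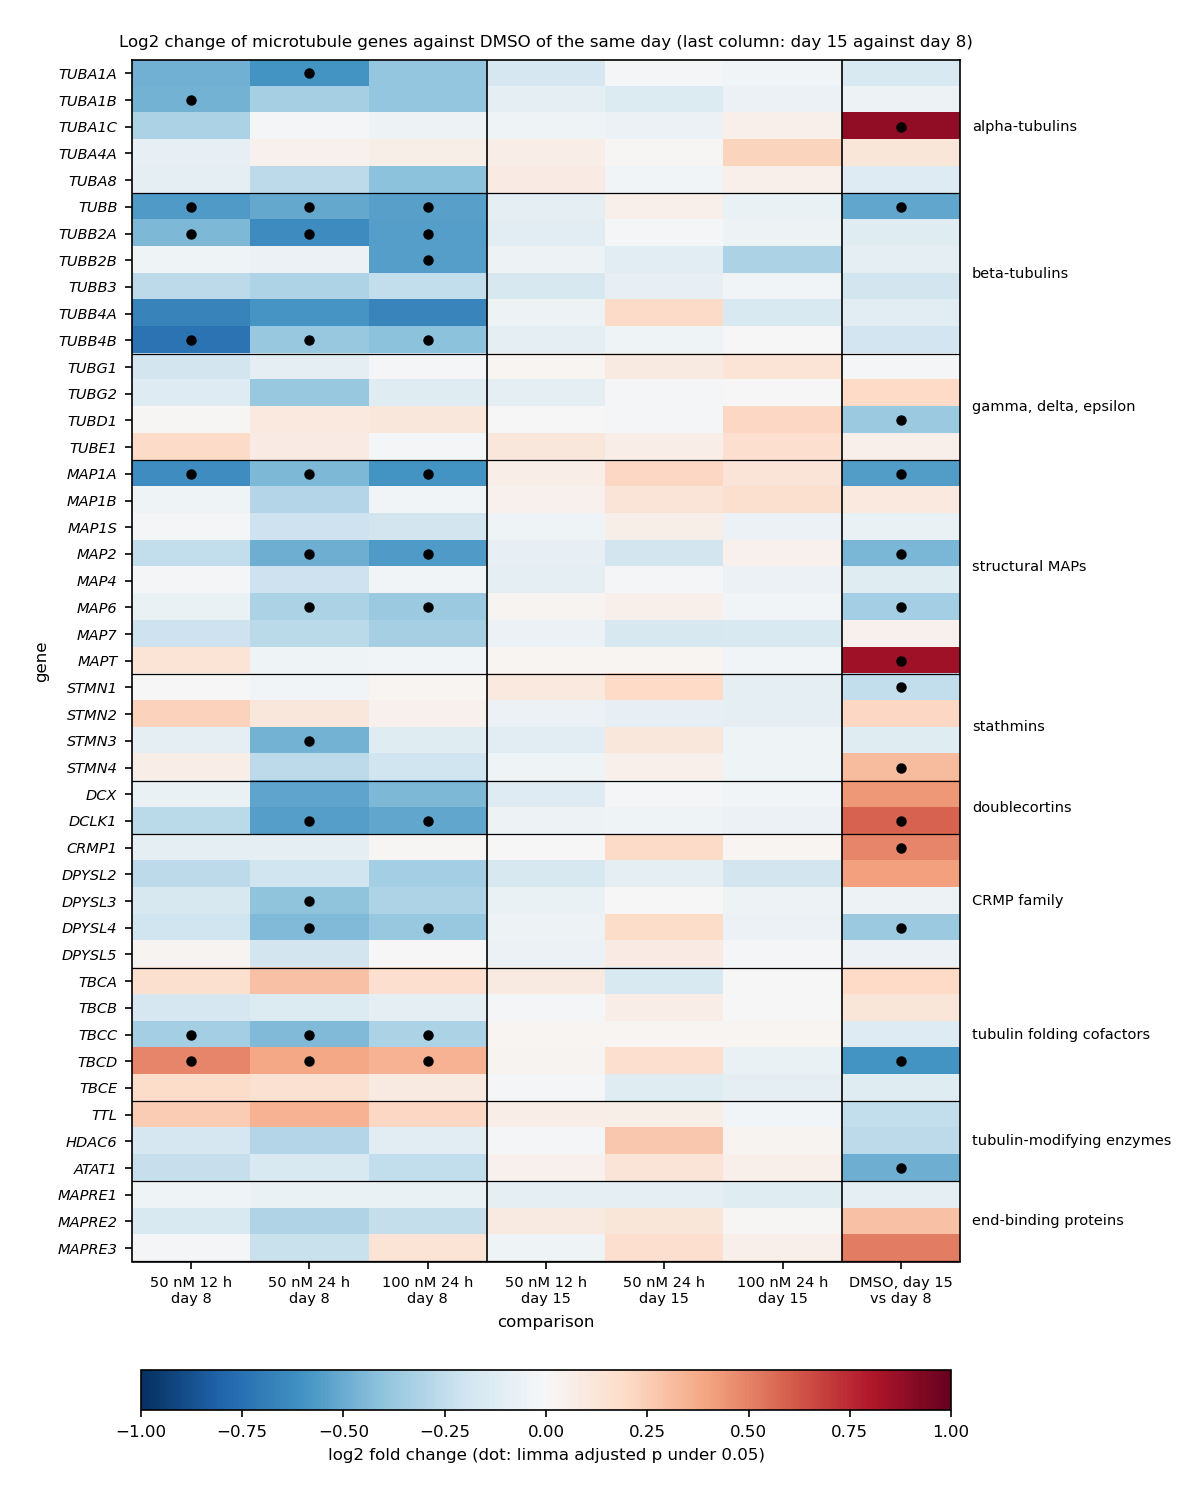
Log2 fold change of the 45 members (rows, by class) in 7 comparisons (columns), with blue for lower, red for higher and a dot for a limma adjusted p under 0.05. Day 8 columns hold 7, 13 and 11 dots, the 3 day 15 columns hold 0, and the last column, DMSO on day 15 against day 8, holds 14.

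The alpha-tubulins form the dimer together with beta-tubulin, and TUBA1A is the main isotype of developing neurons. TUBA1A read 16.41, 16.27 and 16.07 on the DMSO arrays of day 8 and 15.71, 16.09 and 15.77 with 100 nM. The groups overlapped at the lowest DMSO array and the highest array with 100 nM. The change was -0.39 ± 0.18 (SE, n = 3 per group) and did not pass the test (adjusted p = 0.21). With 50 nM for 24 h the values were 15.35, 16.08 and 15.51, a change of -0.60 that passed (adjusted p = 0.044), with 1 of these arrays just above the lowest DMSO array. That call was lost without DMSO replicate 1 or 2 or without 50 nM replicate 1 or 3, with adjusted p values of 0.11 to 0.26, and under 75th percentile scaling (-0.29, adjusted p = 0.14). TUBA1B, the widely expressed isotype, was lower after 12 h of 50 nM (-0.47, adjusted p = 0.03), a call lost without DMSO replicate 1 or 2 or 50 nM replicate 2 or 3, with adjusted p values of 0.083 to 0.16. It changed by -0.39 with 100 nM (adjusted p = 0.055). TUBA1C, TUBA4A and TUBA8 did not pass in any day 8 comparison with DMSO, with changes between -0.41 and 0.06 with 100 nM. The mean of TUBA1C covers 2 probes that disagreed, at -0.47 (SE 0.16) and 0.45 (SE 0.18) with 50 nM for 24 h and at -0.57 and -0.08 with 50 nM for 12 h. The median of the 5 alpha-tubulins with 100 nM was -0.39, and -0.13 under scaling to the 75th percentile.

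The beta-tubulins were the class with the most calls. All 6 measured beta-tubulins lay below zero in each of the 3 day 8 comparisons, and 4, 3 and 3 of them passed the test with 100 nM, with 50 nM for 24 h and with 50 nM for 12 h. Their medians were -0.55, -0.45 and -0.51. The class kept its direction under every processing alternative run for 100 nM, with medians between -0.55 and -0.39, although 0 members passed without batch correction or on slides 2 and 3 alone.

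The promoters of 3 of the beta-tubulins called with 100 nM are shown. TUBB2A was called in all 3 comparisons with DMSO, TUBB2B only with 100 nM, and TUBB4B had its largest change after 12 h, although no difference between exposed groups passed the test for these genes. Each sequence is the 250 bases before the RefSeq transcript start in build GRCh38.p14, written in the direction of transcription. Capitals mark the TATA box letters TATAAA (sense strand only), the CCAAT box letters CCAAT or their complement ATTGG, and the GC box letters GGGCGG or their complement CCGCCC. No marked motif overlaps another in these sequences.
TUBB2A (chr6:3157545-3157794, minus strand): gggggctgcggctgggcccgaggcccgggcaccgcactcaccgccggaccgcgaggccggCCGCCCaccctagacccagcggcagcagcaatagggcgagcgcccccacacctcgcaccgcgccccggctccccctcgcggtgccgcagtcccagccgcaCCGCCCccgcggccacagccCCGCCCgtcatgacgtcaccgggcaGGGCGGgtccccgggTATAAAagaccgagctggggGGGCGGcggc
TUBB2B (chr6:3227654-3227903, minus strand): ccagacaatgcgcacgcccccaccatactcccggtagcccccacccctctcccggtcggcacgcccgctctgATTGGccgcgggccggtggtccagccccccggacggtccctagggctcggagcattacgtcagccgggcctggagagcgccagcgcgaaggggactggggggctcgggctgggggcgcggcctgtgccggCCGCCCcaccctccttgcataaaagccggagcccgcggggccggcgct
TUBB4B (chr9:137241037-137241286, plus strand): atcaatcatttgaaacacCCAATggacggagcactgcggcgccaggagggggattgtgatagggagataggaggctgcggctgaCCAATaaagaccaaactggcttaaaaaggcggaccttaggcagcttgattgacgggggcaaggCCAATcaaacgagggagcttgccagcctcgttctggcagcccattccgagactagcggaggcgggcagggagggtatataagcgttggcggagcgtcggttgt

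The TUBB2A promoter held 1 TATAAA, 30 bases before the start, and 5 GC boxes, but no CCAAT. TUBB2B held 1 CCAAT box in reverse and 1 GC box. TUBB4B held 3 CCAAT boxes and neither TATAAA nor GGGCGG or its complement. Only these exact letters were searched. Variants, such as the tatataa near the end of the TUBB4B sequence, were not counted. Promoters were matched for 40 of the 45 measured members. Of these 40, 10% held TATAAA, 55% held CCAAT and 82.5% held GGGCGG in this window, beside 8.38%, 37% and 46.2% of all 27305 genes with a promoter in the table. Among the 6 beta-tubulins, 1 held TATAAA, 5 held CCAAT and 5 held GGGCGG. The 27305 genes were not limited to genes measured or detected here, unlike the 40 members. The difference in shares is therefore not read as a trait of microtubule genes. These shares describe letters in a window and no binding was measured.

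TUBB2A encodes a major neuronal beta-tubulin. Its signal was 16.14, 16.16 and 16.02 in DMSO on day 8, 15.51, 15.71 and 15.45 with 100 nM, 15.25, 15.77 and 15.4 with 50 nM for 24 h, and 15.88, 15.69 and 15.41 with 50 nM for 12 h. Every rotenone array of day 8 was below every DMSO array. The changes were -0.55 ± 0.13, -0.63 ± 0.13 and -0.45 ± 0.13 (SE, n = 3), with adjusted p values of 0.0081, 0.0035 and 0.044. With 100 nM the signal fell by 31.6%, and the 100 nM and 50 nM 24 h calls held without any single array. Under 75th percentile scaling the changes were -0.30, -0.37 and -0.29 and still passed. The 12 h call held only without 50 nM replicate 1, and otherwise had adjusted p values of 0.069 to 0.21 with an array left out.

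TUBB, a beta-tubulin expressed in most tissues, read 14.42, 14.48 and 14.32 in DMSO and 13.85, 14.06 and 13.66 with 100 nM. The groups did not overlap, and the change was -0.54 ± 0.16 (adjusted p = 0.032). Within slides 1, 2 and 3 the differences were -0.56, -0.40 and -0.67. It was lost under 75th percentile scaling (-0.38, adjusted p = 0.069), with the processed signal (0.055) and with the brightest probe (0.14). Without any 1 array other than 100 nM replicate 2 the adjusted p was between 0.056 and 0.15. TUBB was also lower with 50 nM for 24 h (-0.51, adjusted p = 0.048) and for 12 h (-0.57, adjusted p = 0.038). Those calls were equally lost without 5 of the 6 arrays, all but replicate 2 of 50 nM for 24 h and all but replicate 1 of 50 nM for 12 h, with adjusted p values of 0.067 to 0.17.

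TUBB2B, a close paralog of TUBB2A with a role in neuronal migration, was called at the higher dose alone. The DMSO arrays of day 8 gave 13.64, 13.74 and 13.47, and the arrays with 100 nM gave 13.39, 12.99 and 12.83. With 50 nM the values were 13.46, 13.65 and 13.55 after 24 h and 13.48, 13.77 and 13.47 after 12 h. Both groups overlapped with DMSO. The change with 100 nM was -0.55 ± 0.13 (adjusted p = 0.012), while the changes with 50 nM were -0.06 (adjusted p = 0.89) and -0.04 (adjusted p = 0.95). The direct comparison of 100 nM with 50 nM for 24 h gave -0.48 ± 0.13 (95% interval -0.76 to -0.21), with non-overlapping arrays, an unadjusted p of 0.0018 and an adjusted p of 1. The 100 nM call was lost without DMSO replicate 2, 100 nM replicate 2 or 100 nM replicate 3 (adjusted p = 0.056, 0.052 and 0.09).

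TUBB4B, a beta-tubulin also found in cilia, showed its lowest values at the shorter exposure. It read 11.44, 11.45 and 11.37 in DMSO, 10.58, 10.85 and 10.6 after 12 h of 50 nM, 10.86, 11.15 and 11.1 after 24 h of 50 nM, and 11.04, 11 and 10.98 after 24 h of 100 nM. No rotenone array reached the DMSO values. The change at 12 h was -0.74 ± 0.097 (adjusted p = 0.00015). The signal fell by 40.2%, and the call held without any single array. At 24 h the changes were -0.38 with 50 nM (adjusted p = 0.018) and -0.41 with 100 nM (adjusted p = 0.01). Between 24 h and 12 h of 50 nM the difference was 0.36 ± 0.097, with every 24 h array above every 12 h array. Of the 45 members it had the smallest p for this comparison, but it did not pass over all genes (adjusted p = 0.11). It did pass with 75th percentile scaling, with the processed signal, with a normexp offset of 50 or with the deposited table, where the smallest adjusted p was 0.0047. The 50 nM 24 h call was lost without DMSO replicate 1 or 2 or 50 nM replicate 1 (adjusted p = 0.06, 0.063 and 0.14).

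TUBB3, the class III beta-tubulin widely used as a neuronal marker, read 16.07, 16.03 and 15.66 in DMSO and 15.71, 15.69 and 15.61 with 100 nM. The lowest DMSO array lay within the range of the 100 nM arrays. The change was -0.25 ± 0.11 (adjusted p = 0.18), and -0.39 (adjusted p = 0.027) without DMSO replicate 3. TUBB4A, a beta-tubulin of neurons and oligodendrocytes, had the largest mean difference of all members with 100 nM (-0.66). Its arrays varied most among the beta-tubulins, with an SE of 0.28, and the change did not pass (adjusted p = 0.17) although the groups did not overlap.

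The gamma-tubulins TUBG1 and TUBG2, which nucleate microtubules, and the delta- and epsilon-tubulins TUBD1 and TUBE1 of centrioles did not pass in any day 8 comparison with DMSO. Their changes with 100 nM lay between -0.12 and 0.11.

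**Figure D2:**
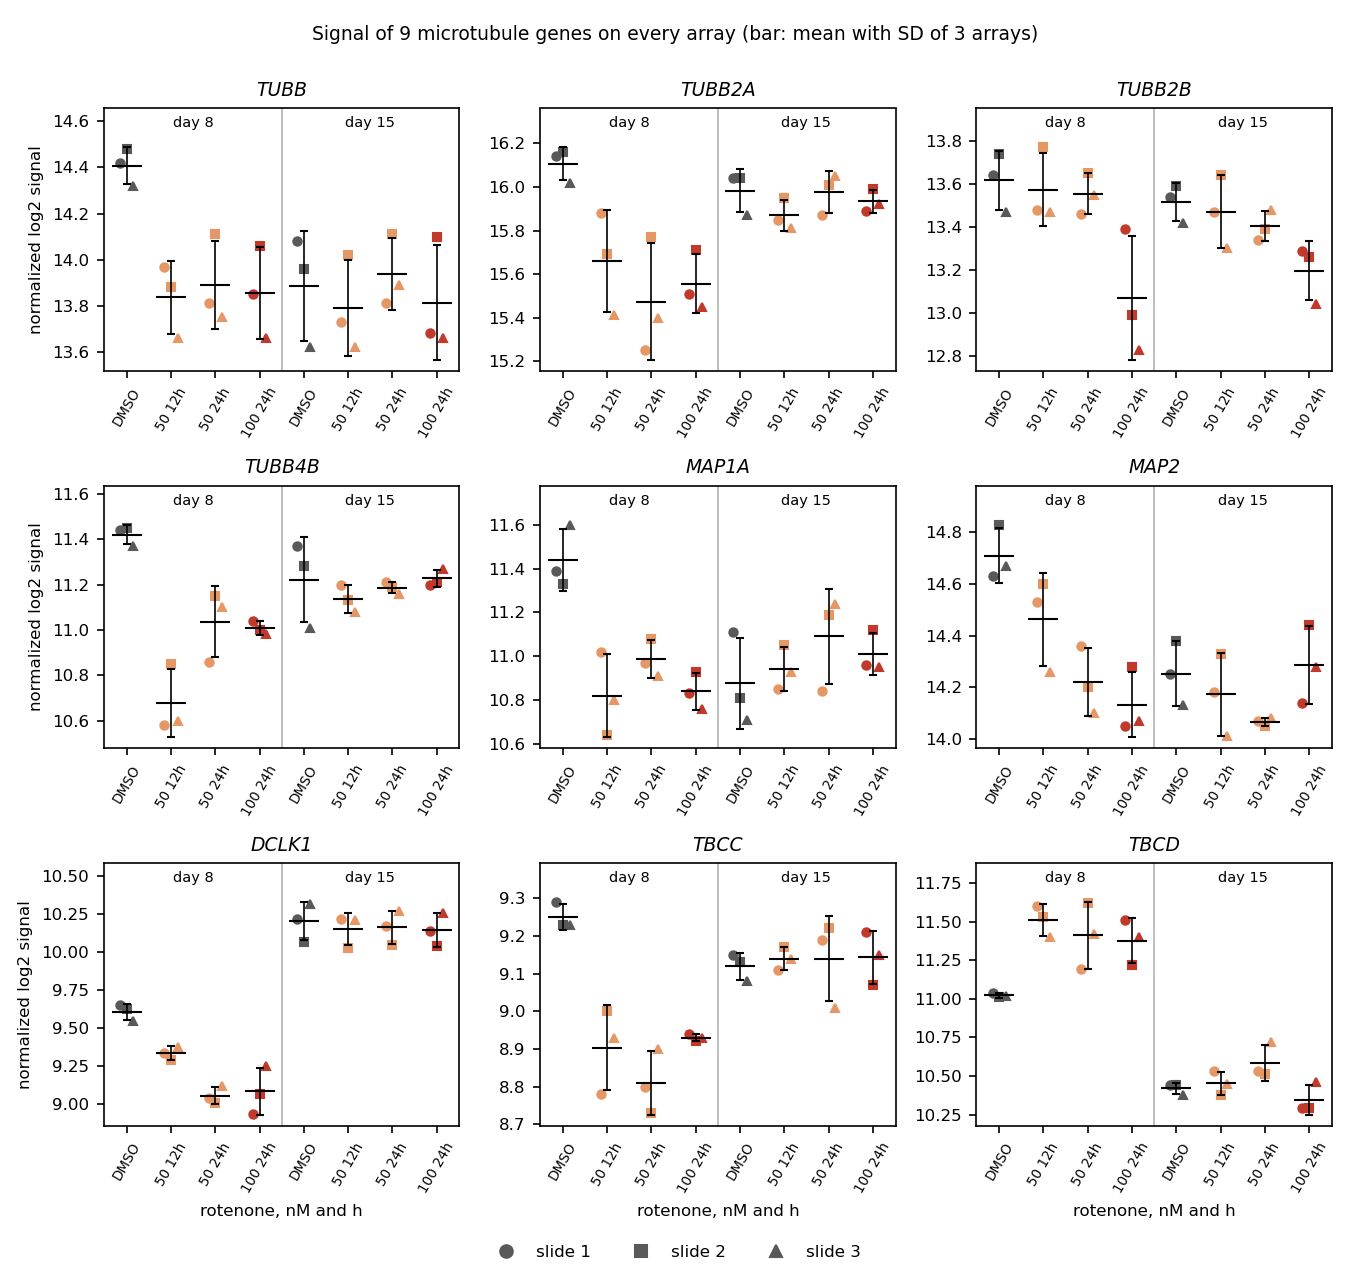
Normalized log2 signal (vertical axes, scaled per gene) of 9 members on each of the 24 arrays, by rotenone dose in nM and exposure in h, with day 8 on the left and day 15 on the right of each panel; symbols give the slide and bars the mean with the SD of 3 arrays. On day 8 the 9 arrays with rotenone lie below the DMSO arrays for TUBB, TUBB2A, TUBB4B, MAP1A, MAP2, DCLK1 and TBCC and above them for TBCD, while on day 15 the groups overlap for these 8 genes apart from 50 nM for 24 h, where MAP2 lies below and TBCD above the DMSO arrays.

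The structural proteins bind along the lattice. All 8 measured members of this class lay below zero with 100 nM on day 8, and 3 of them passed, MAP1A, MAP2 and MAP6. MAP1A, a lattice protein of mature neurons, read 11.39, 11.33 and 11.6 in DMSO and 10.83, 10.93 and 10.76 with 100 nM. The groups did not overlap, and the change of -0.60 ± 0.13 (adjusted p = 0.0045) was the largest of the members that passed. It held without any single array. With 50 nM the changes were -0.45 at 24 h (adjusted p = 0.033) and -0.62 at 12 h (adjusted p = 0.0059). The first of these did not pass with the replicate number as a block (adjusted p = 0.055), nor without DMSO replicate 1 or 3 or 50 nM replicate 1 or 3 (adjusted p = 0.059 to 0.15).

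MAP2, the dendritic lattice protein, read 14.63, 14.83 and 14.67 in DMSO, 14.05, 14.28 and 14.07 with 100 nM, 14.36, 14.2 and 14.1 with 50 nM for 24 h, and 14.53, 14.6 and 14.26 with 50 nM for 12 h. The rotenone arrays lay below the DMSO arrays at all 3 exposures. The changes were -0.57 ± 0.11 (adjusted p = 0.0028), -0.49 ± 0.11 (adjusted p = 0.011) and -0.25 ± 0.11 (adjusted p = 0.28). The 100 nM call held without any single array, and the 50 nM 24 h call was lost without DMSO replicate 2 or 50 nM replicate 3 (adjusted p = 0.055 for each) and under 75th percentile scaling (-0.22, adjusted p = 0.27). In the deposited table of normalized values, MAP2 had a mean difference of -3.37 from the value used here on the log2 scale and a change of -0.20 with 100 nM (adjusted p = 0.22). MAP6, which protects microtubules from cold, changed by -0.37 with 100 nM (adjusted p = 0.005) and -0.32 with 50 nM for 24 h (adjusted p = 0.015). The latter was lost without DMSO replicate 2 or 50 nM replicate 1 (adjusted p = 0.055 and 0.064). Both changes came mainly from 1 of its 2 probes, with -0.61 and -0.13 at 100 nM and -0.50 and -0.15 at 50 nM for 24 h. Under 75th percentile scaling the MAP6 changes were -0.24 (adjusted p = 0.061) and -0.14 (adjusted p = 0.38).

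MAPT, which encodes the axonal lattice protein tau, was not called in any day 8 comparison with DMSO. It read 11.69, 12.11 and 12.03 in DMSO and 11.91, 11.85 and 11.99 with 100 nM, with overlapping groups. The difference was -0.03 ± 0.11 (95% interval -0.26 to 0.21, adjusted p = 0.95). This mean covers 2 probes that differed in direction, at -0.14 and 0.09 with 100 nM. With 50 nM for 24 h they changed by -0.28 (SE 0.081) and 0.20 (SE 0.21). MAP1B, MAP1S, MAP4 and MAP7 had no call in any day 8 comparison with DMSO.

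The stathmins sequester tubulin dimers or promote disassembly. Of the 4, 1 passed in 1 comparison, STMN3 with 50 nM for 24 h (-0.47, adjusted p = 0.047). That call was lost with the replicate number as a block (adjusted p = 0.052) and without any 1 array other than 50 nM replicate 2 (adjusted p = 0.09 to 0.28). STMN1, STMN2 and STMN4 lay between -0.20 and 0.04 with 100 nM.

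Doublecortins stabilize microtubules in migrating and growing neurons. DCLK1 read 9.65, 9.63 and 9.55 in DMSO, 8.94, 9.07 and 9.25 with 100 nM, 9.04, 9.01 and 9.12 with 50 nM for 24 h, and 9.34, 9.29 and 9.38 with 50 nM for 12 h. All arrays with rotenone were lower than those with DMSO, and the 12 h arrays were above the arrays of both 24 h groups. The changes were -0.52 ± 0.094 (adjusted p = 0.0013), -0.55 ± 0.094 (adjusted p = 0.00094) and -0.27 ± 0.094 (adjusted p = 0.11). The 4 probes of DCLK1 changed by -0.98 to -0.16 with 100 nM. With the brightest probe alone the change was -0.16 (adjusted p = 0.49). DCX, the marker of young neurons, read 14.36, 14.2 and 13.95 in DMSO and 13.57, 13.91 and 13.69 with 100 nM, without overlap. Its change of -0.45 ± 0.16 did not pass (adjusted p = 0.099).

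The collapsin response mediator proteins carry tubulin dimers and act in axon growth. DPYSL4 passed with 100 nM (-0.38, adjusted p = 0.021) and with 50 nM for 24 h (-0.44, adjusted p = 0.0089), and DPYSL3 with 50 nM for 24 h (-0.40, adjusted p = 0.017). The 100 nM call of DPYSL4 was lost without DMSO replicate 2 or 3 or 100 nM replicate 2 or 3 (adjusted p = 0.057 to 0.08), and the 50 nM call without 50 nM replicate 1 (adjusted p = 0.066). The call of DPYSL3 was lost without DMSO replicate 1 or 2 or 50 nM replicate 1 or 2 (adjusted p = 0.054 to 0.069), and under 75th percentile scaling (-0.12, adjusted p = 0.78). CRMP1, DPYSL2 and DPYSL5 lay between -0.34 and 0.01 with 100 nM and did not pass.

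The folding cofactors moved in both directions. TBCD, which binds beta-tubulin during assembly of the dimer, read 11.04, 11.01 and 11.02 in DMSO, 11.51, 11.22 and 11.4 with 100 nM, 11.19, 11.62 and 11.42 with 50 nM for 24 h, and 11.6, 11.53 and 11.4 with 50 nM for 12 h. Every array with rotenone was above the narrow range of the DMSO arrays. The changes were 0.35 ± 0.1, 0.39 ± 0.1 and 0.49 ± 0.1, with adjusted p values of 0.036, 0.025 and 0.0076, and the last is an increase by 40%. With the replicate number as a block the first was at an adjusted p of 0.051. Without any 1 array other than 100 nM replicate 2 it was between 0.08 and 0.19, and the 50 nM 24 h call was lost in the same way without any 1 array other than 50 nM replicate 1 (0.056 to 0.14). The 12 h call held without any single array.

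TBCC, the cofactor that triggers release of the finished dimer, was lower. It read 9.29, 9.23 and 9.23 in DMSO and 8.94, 8.92 and 8.93 with 100 nM, with no overlap. The changes were -0.32 ± 0.077 with 100 nM, -0.44 with 50 nM for 24 h and -0.34 with 50 nM for 12 h, with adjusted p values of 0.01, 0.0011 and 0.01. The 12 h call was lost without DMSO replicate 1 or 50 nM replicate 1 (adjusted p = 0.051 and 0.061). TBCA, TBCB and TBCE did not pass, with changes between -0.09 and 0.17 with 100 nM. None of the 3 modifying enzymes passed on day 8, and these were the tyrosine ligase TTL, the deacetylase HDAC6 and the acetyltransferase ATAT1, at 0.21, -0.11 and -0.25 with 100 nM. Among the end-binding proteins MAPRE1, MAPRE2 and MAPRE3, which track growing plus ends, 0 passed, with changes between -0.24 and 0.14.

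Neither dose nor time separated the exposed groups of day 8 for any member at an adjusted p under 0.05. Between 100 nM and 50 nM for 24 h, 0 of 45 members and 0% of all genes passed, and 2 members had an unadjusted p under 0.05. Their member median was 0.02. Between 24 h and 12 h of 50 nM, 0 members, 0.532% of all genes and 0.842% of the well detected genes passed, with 10 members at an unadjusted p under 0.05 and a median of -0.1. Under 75th percentile scaling, the processed signal, a normexp offset of 50, the brightest probe or the deposited table, 1 member passed this comparison. The unadjusted counts are given without the share of all genes and are not read as a result about the members.

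Within each slide, which held 1 array of every group, the members called on day 8 changed in the same direction on all 3 slides, 11 of 11 with 100 nM, 13 of 13 with 50 nM for 24 h and 7 of 7 with 50 nM for 12 h. These members were called on the same arrays, so that a shared direction largely follows from their selection and is no separate support. The member medians with 100 nM were -0.20, -0.14 and -0.17 on slides 1, 2 and 3. Of the 45 members, 25 (55.6%) were lower with 100 nM on all 3 slides, against 25.3% of all genes. The share of the well detected genes is not given here.

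Markers of cell types also moved with 100 nM on day 8. Of the 10 neuronal markers, ELAVL4 (-0.51) and SNAP25 (-0.30) were lower and the other 8 did not pass, and their summed signal ranged from 17.79 to 17.95 in DMSO and from 17.61 to 17.8 with 100 nM. Of the 7 progenitor markers tested, VIM was higher (0.42) and HES5 (-0.73) and PROM1 (-0.71) were lower. The summed signals did not overlap, with 14.06 to 14.37 in DMSO and 14.54 to 14.73 with 100 nM, and SOX2 was well above background on no array. Of the 10 cycling markers, 0 passed, with summed signals of 10.84 to 11.50 in DMSO and 10.72 to 10.99 with 100 nM. Of the 10 dopaminergic markers, 0 passed, while their summed signal did not overlap between the groups, with 10.68 to 10.71 in DMSO and 10.91 to 11 with 100 nM. Each sum adds signals on the linear scale, so that the brightest markers weigh most, and it can rise while other markers fall. The part of these marker shifts in the changes of the microtubule genes was not tested.

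After wash-out and 7 days of recovery the differences from DMSO were not detected. On day 15, 0 of 45 members passed at any of the 3 exposures, as did 0% of all genes. At an unadjusted p under 0.05 there were 2 members with 100 nM, 1 with 50 nM for 24 h and 0 with 50 nM for 12 h. These were 4.44%, 2.22% and 0% of the members, given without the share of all genes. Member medians were -0.03, 0.02 and -0.04. The largest differences of any member were -0.32 and 0.27. The 11 genes called with 100 nM on day 8 lay between -0.32 and 0.13 on day 15. TUBA1A, TUBB3, MAP2, MAPT and DCX differed by -0.03, -0.03, 0.04, -0.03 and -0.03 with 100 nM.

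TUBB2B had the smallest p on day 15. It read 13.54, 13.59 and 13.42 in DMSO, 13.29, 13.26 and 13.04 with 100 nM, 13.34, 13.39 and 13.48 with 50 nM for 24 h and 13.47, 13.64 and 13.3 with 50 nM for 12 h. The 100 nM arrays were below all DMSO arrays, and the 50 nM arrays overlapped with them. The difference was -0.32 ± 0.13 (95% interval -0.60 to -0.04), with an unadjusted p of 0.025 and an adjusted p of 0.65. It stayed below zero under all 10 alternatives and with each array left out, between -0.41 and -0.24, and did not pass in any of them.

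**Figure D3:**
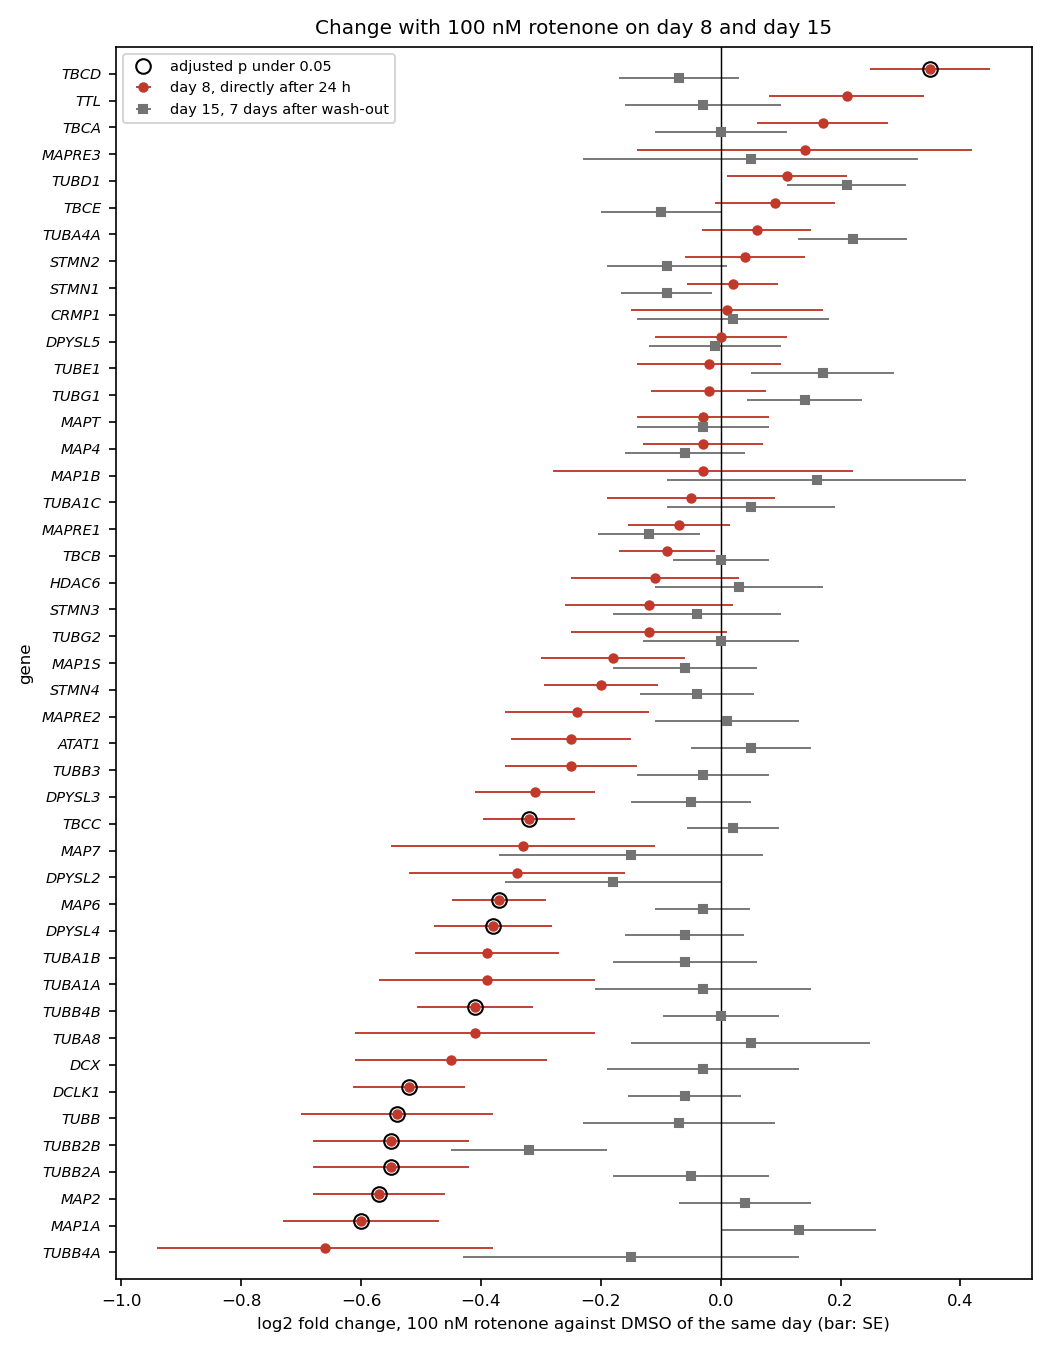
Log2 fold change of the 45 members with 100 nM rotenone against the DMSO arrays of the same day (horizontal axis; bars are the SE of the limma fit), on day 8 in red and on day 15 in gray, ordered by the day 8 value; rings mark an adjusted p under 0.05. The day 8 values run from -0.66 to 0.35, and the day 15 values from -0.32 to 0.22.

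The change with 100 nM on day 15 was compared directly with that on day 8. The difference of the 2 changes passed for 1 of 45 members, 2.22% beside 2.47% of all genes (1.17% with a higher and 1.3% with a lower value) and 3.87% of the well detected genes. This was MAP1A, which read 11.11, 10.81 and 10.71 in DMSO and 10.96, 11.12 and 10.95 with 100 nM on day 15. Its groups overlapped on day 15, with a change of 0.13 (adjusted p = 0.83) after -0.60 on day 8. The difference was 0.73 ± 0.18 (adjusted p = 0.034), and it includes the decrease of MAP1A from day 8 to day 15 in DMSO described below. With the replicate number as a block its adjusted p was 0.057, and 2 members passed. Without day 15 DMSO replicate 2 or 3, day 15 100 nM replicate 2, day 8 DMSO replicate 1 or 3, or day 8 100 nM replicate 1 or 3 it was between 0.053 and 0.095. MAP2 was next by p (0.61, adjusted p = 0.052), followed by DCLK1 (0.47, adjusted p = 0.072), both named here after their values were seen.

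Between day 8 and day 15 in DMSO the same genes were followed through maturation of the control aggregates. This comparison passed for 14 of 45 members, 5 higher and 9 lower, 31.1% beside 23.3% of all genes (10.1% higher, 13.2% lower) and 32.5% of the genes well above background on all arrays. The share was therefore close to that of other well detected genes. All 14 changed in the same direction on all 3 slides, which largely follows from their selection on the same arrays. Higher on day 15 were TUBA1C, MAPT, DCLK1, CRMP1 and STMN4, and lower were TBCD, MAP1A, TUBB, ATAT1, MAP2, TUBD1, DPYSL4, MAP6 and STMN1.

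MAPT rose from 11.69, 12.11 and 12.03 on day 8 to 12.84, 12.7 and 12.85 on day 15. All arrays of day 15 were above those of day 8, with a change of 0.85 ± 0.11 (adjusted p = 1.2e-05), an increase by 80.5%, and both probes of the gene rose, by 0.54 and 1.17. TUBA1C rose from 11.72, 11.52 and 11.2 to 12.33, 12.44 and 12.33, a change of 0.89 ± 0.14 (adjusted p = 0.00013). The rise of TUBA1C came mainly from 1 of its 2 probes, with changes of 1.62 and 0.16, and the brightest probe alone did not pass (adjusted p = 0.56). DCLK1 read 9.65, 9.63 and 9.55 on day 8 and 10.22, 10.07 and 10.32 on day 15. This was a rise of 0.59 ± 0.094 (adjusted p = 0.00013), and its 4 probes rose by 0.48 to 0.77. DCLK1 was thus a gene that was higher on day 15 than on day 8 and lower with rotenone on day 8. CRMP1 read 9.54, 9.85 and 9.39 and then 10.06, 10.08 and 10.12, without overlap (0.49 ± 0.16, adjusted p = 0.036). Its call was lost without any 1 array other than day 8 DMSO replicate 2 (adjusted p = 0.07 to 0.15), and with the brightest probe (0.28, adjusted p = 0.19). STMN4 (0.32, adjusted p = 0.019) was lost without day 15 DMSO replicate 1 or day 8 DMSO replicate 1 or 2 (adjusted p = 0.052 to 0.1).

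TBCD fell from 11.04, 11.01 and 11.02 to 10.44, 10.44 and 10.38. The groups were far apart relative to their spread, with a change of -0.60 ± 0.1 (adjusted p = 0.00024). MAP1A, at 11.39, 11.33 and 11.6 on day 8 and 11.11, 10.81 and 10.71 on day 15, changed by -0.56 ± 0.13 (adjusted p = 0.003). MAP2 fell by 0.46 (adjusted p = 0.0064) from 14.63, 14.83 and 14.67 to 14.25, 14.38 and 14.13, so that the dendritic MAP2 and the axonal MAPT moved in opposite directions. TUBB changed from 14.42, 14.48 and 14.32 to 14.08, 13.96 and 13.62 (-0.52 ± 0.16, adjusted p = 0.02), and its 3 probes changed by -0.81 to -0.12. The call of TUBB was lost without day 15 DMSO replicate 3 or day 8 DMSO replicate 1 or 2 (adjusted p = 0.1, 0.054 and 0.066), and with the brightest probe alone (adjusted p = 0.7). For ATAT1 the gene value fell from 9.97, 10.03 and 9.96 to 9.44, 9.55 and 9.52 (-0.49 ± 0.1, adjusted p = 0.0018), but its 2 probes moved in opposite directions, by -1.40 and 0.42. The direction of ATAT1 is therefore not settled. DPYSL4, TUBD1, MAP6 and STMN1 changed by -0.37, -0.37, -0.34 and -0.25. The call of DPYSL4 was lost without day 15 DMSO replicate 3 (adjusted p = 0.052), that of TUBD1 without day 15 DMSO replicate 2 or day 8 DMSO replicate 3 (0.073 and 0.062), and that of STMN1 without day 15 DMSO replicate 1 or day 8 DMSO replicate 1 or 3 (0.066 to 0.079). With the processed signal STMN1 was at 0 (adjusted p = 0.99), under 75th percentile scaling TUBD1 was at -0.28 (adjusted p = 0.1), and with the brightest probe MAP6 was at -0.24 (adjusted p = 0.15). The 5 probes of STMN1 changed by -0.4 to -0.05, with -0.05 at the brightest.

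The other textbook neuronal genes did not pass. DCX read 14.36, 14.2 and 13.95 on day 8 and 14.45, 14.6 and 14.74 on day 15 (0.43, adjusted p = 0.065), with all day 15 arrays above those of day 8. TUBA1A (16.21, 16.19 and 15.9 on day 15) changed by -0.15 (adjusted p = 0.62) and TUBB3 (15.78, 15.84 and 15.59) by -0.18 (adjusted p = 0.26), each with overlapping groups. The 5 probes of MAP4, a lattice protein of many tissues, changed by -0.89 to 1.19, and its gene mean did not pass (-0.12, adjusted p = 0.45).

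**Figure D4:**
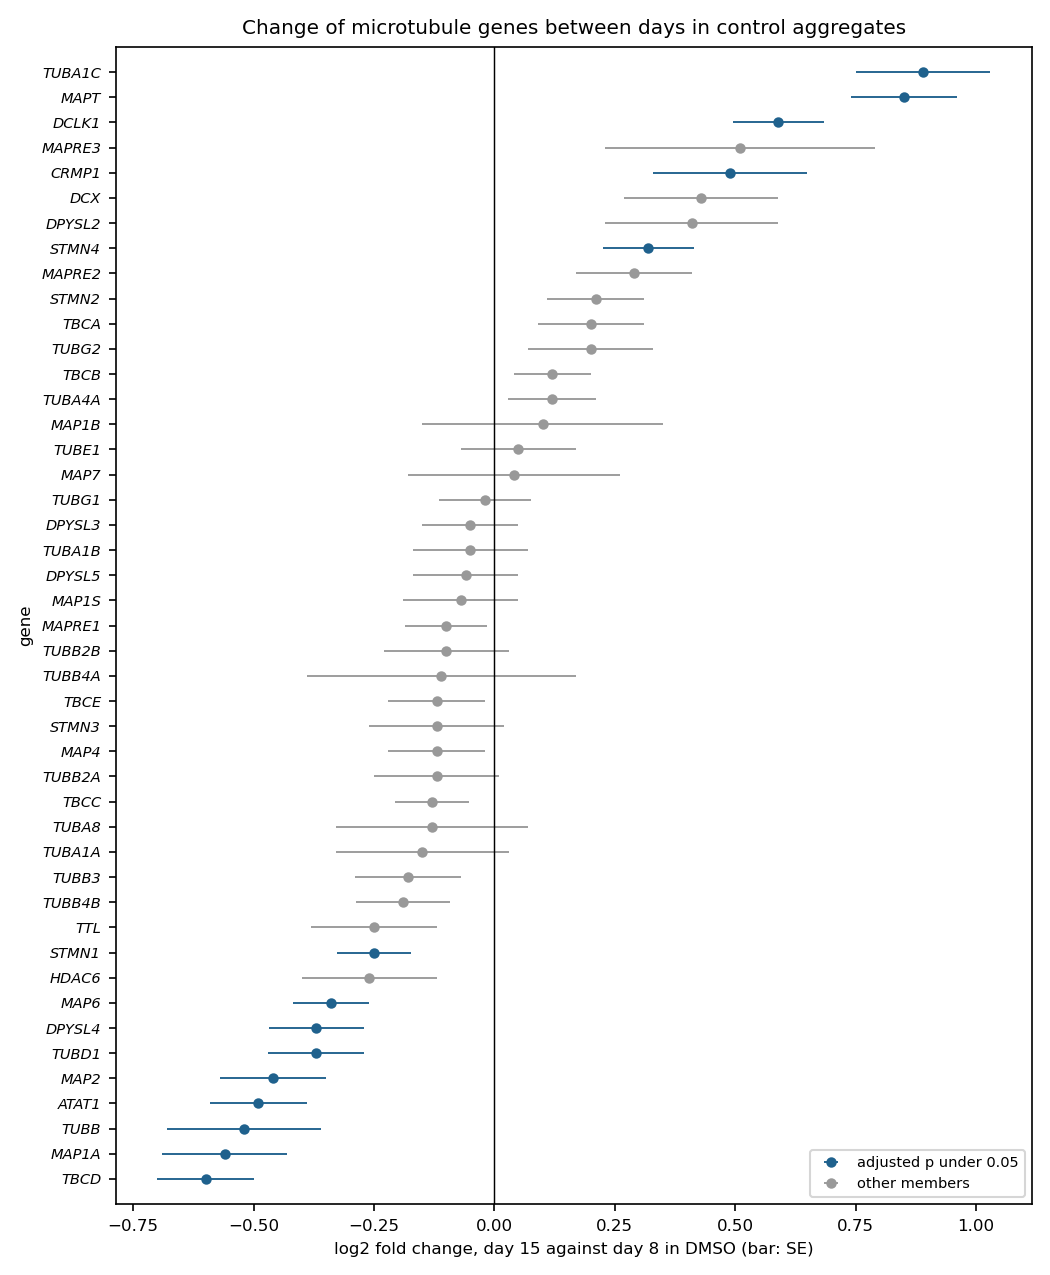
Log2 fold change of the 45 members between day 15 and day 8 in DMSO (horizontal axis; bars are the SE of the limma fit), ordered by value, with the 14 members at an adjusted p under 0.05 in blue. Values run from -0.60 for TBCD to 0.89 for TUBA1C.

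Between the same DMSO groups, markers of cell types moved too, those of neurons among them. Of the 10 cycling markers 8 were lower on day 15, with summed signals of 10.84 to 11.50 on day 8 and 10.37 to 10.50 on day 15. Of the dopaminergic markers TH changed by -2.94 and SLC6A3 by -2.06, while NR4A2, PITX3, LMX1B and KCNJ6 were higher. The direction of SLC18A2, DDC, FOXA2 and ALDH1A1 is not given. The summed signal of the 10 dopaminergic markers was 10.68 to 10.71 on day 8 and 9.82 to 9.97 on day 15. Of the 10 neuronal markers ELAVL4, SNAP25 and NEFL were higher, and the direction of the others is not given. The summed signal of all 10 was 17.79 to 17.95 on day 8 and 18.07 to 18.12 on day 15. Progenitor markers summed to 14.06 to 14.37 and 14.75 to 14.96, and the 6 oligodendrocyte markers tested to 9.64 to 9.77 and 7.69 to 7.93, where OLIG2 changed by -4. As above, these sums follow the brightest markers, and the direction of single progenitor markers is not given. The part of these marker changes in those of the microtubule genes was not tested.

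Other microtubule genes were counted from a second list of 82 measured genes. It held severing enzymes, further tubulin modifiers, the gamma-tubulin ring complex, plus- and minus-end regulators, chaperonin and prefoldin subunits and further lattice binders. With 100 nM on day 8, 4 were higher and 6 lower, with a median of -0.02. This was 12.2% of the list, beside 9.52% of all genes (4.09% higher, 5.43% lower). Of the genes well above background on all arrays, 14.7% passed. The share of the list was thus near that of other genes. The lattice binder EML2 (0.61), the deacetylase SIRT2 (0.53) and the ligase-like TTLL12 (0.46) were the highest of those that passed, and the lattice binders MAP7D2 (-0.58), MAP7D1 (-0.40) and TPPP3 (-0.38) the lowest. The chaperonin subunits CCT2 and CCT3, which fold tubulin, were lower (-0.30 and -0.23), and ARL2, the small GTPase that works with TBCD, was higher (0.39). Among the 8 severing enzymes, the 9 members of the gamma-tubulin ring complex and the 15 end regulators, 0 passed with 100 nM. On day 15, 0 of the 82 genes passed at any exposure.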

How the data were processed

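RNA of 24 wells of LUHMES aggregates, 3 in each of 8 groups assigned from their labels, was measured on single-color arrays. The authors deposited spot intensities as read by Agilent Feature Extraction (11.5.1.1 per the submitters' processing notes, which also name R 3.5) and log2 values they had normalized, with 21733 probe IDs and column medians of 6.42 to 6.64. Slide 1 was a repeated slide that needs batch correction per the labels. As in the study's methods, median intensities were corrected with normexp (offset 0), quantile normalized over 24 arrays and adjusted by parametric ComBat (slide 1 against the other slides, groups as covariates), written out here and checked on simulated data. A spot was retained where 3 or more arrays exceeded the 95th percentile of the 308 negative controls by a factor of 1.1, without control spots or outlier flags. Spots were averaged per probe and probes per gene, named by accession through RefSeq (GRCh38.p14). The array header names another build, so that only promoter coordinates are given.

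Groups were compared with limma 3.58.1 (R 4.3.3) in 1 model over the 24 arrays (residual degrees of freedom 16, prior 2.44), two-sided, and Benjamini-Hochberg adjustment over 21235 genes. Figures used matplotlib 3.10.9 under Python 3.11.15. Between 50.9% and 82.4% of spots were detected well above background, and precision is set by the number of arrays. The members and lists were chosen with earlier results of these data known. Array values were given for the 6 members called and most changed in each direction with 100 nM on day 8, the 4 in each direction between days in DMSO, those with the smallest p on day 15 and between exposure times, any called for the difference between days, and TUBA1A, TUBB3, MAP2, MAPT and DCX. Values of TUBB4B at all exposures, of TBCC and of single members outside this rule were added after they were seen.

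The replicate number is the slide number in the scans. After subtraction of group means, before batch correction, the 84 same-numbered pairs of arrays had correlations from 0.172 upward. Their median was 0.462, against -0.355 in the 168 other pairs. The subtraction itself pushes the other pairs below zero, and a shared slide cannot be told apart from paired wells. The numbers were used as a block in an alternative fit. Alternatives were the replicate number as a block in place of ComBat, no batch correction, slides 2 and 3 only, only the compared groups in the fit, the processed signal, scaling to the 75th percentile, normexp with offset 50, a filter on probes well above background, the brightest probe per gene, the deposited log2 values, and each array left out.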

Additional observations from a re-analysis of the deposited data

Results flagged for a closer look

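MAP1A was the member whose change with 100 nM rotenone differed between the days in a direct test. Its change on day 15 minus its change on day 8 was 0.73 on the log2 scale (SE 0.18, limma adjusted p = 0.034 over all genes tested), from -0.60 on day 8 and 0.13 on day 15. The value lay between 0.61 and 0.90 under the 10 alternatives, of which 6 did not pass, and between 0.64 and 0.87 with an array left out.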

How the results depend on the processing

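The precision is limited by 3 wells per group, and 0 members were called with 100 nM, 50 nM for 24 h or 50 nM for 12 h on slides 2 and 3 alone, where each group has 2 arrays. Without batch correction the counts were 3, 2 and 1 (11, 13 and 7 as reported), and with only the compared groups in the fit 3, 1 and 0, where fewer arrays estimate the spread. The deposited table gave 17 with 100 nM and 11 with 50 nM for 12 h, and 75th percentile scaling and the processed signal each gave 8 with 50 nM for 24 h. Between 24 h and 12 h, 1 member passed in place of 0 with 75th percentile scaling, the deposited table, the brightest probe, an offset of 50 or the processed signal. In DMSO between days, 14 became 9 with the brightest probe, 7 without batch correction and 5 on slides 2 and 3. For the difference between days, 1 became 5 with the deposited table, 4 with an offset of 50, 3 with the brightest probe or the filter on well detected probes, 2 with the processed signal, and 0 without batch correction, on slides 2 and 3, or with only the compared groups. With 75th percentile scaling the 1 gene called was lower, not MAP1A. With an array left out, the counts were 7 to 10, 5 to 13, 3 to 6, 11 to 12 and 0 to 2 in the same order, and 0 for dose, time and the day 15 comparisons. The causes of these shifts were not tested.

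With the replicate number as a block in place of ComBat the counts were 12, 13, 9, 16 and 2, and the calls of TBCD with 100 nM, MAP1A and STMN3 with 50 nM for 24 h and MAP1A between days were lost. It ended no other call among the members given by value. MAPT with 100 nM ranged from -0.18 without day 8 DMSO replicate 1 to 0.07 without day 8 DMSO replicate 2, 0.03 without replicate 3 and 0.01 without 100 nM replicate 2, and ATAT1 between days was 0.42 with the brightest probe. Of 520 values of named genes under the other alternatives, 318 kept their call and 141 lost it. The processed signal moved the median of all genes with 100 nM to 0.1 and between days to 0.15, and the split of all genes between days to 3092 higher and 2574 lower from 2146 and 2806. Day 15 and dose counts were 0 under every alternative run.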

Other observations

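Of the 82 further microtubule genes, 20 were higher and 8 lower on day 15 than on day 8 in DMSO, 34.1% of the list beside 23.3% of all genes (10.1% higher, 13.2% lower) and 32.5% of the genes well above background on all arrays. The share of the list was thus near that of other well detected genes. The 20 further lattice binders included 9 higher and 2 lower, and the 15 end regulators 5 higher and 0 lower. NAV3, a plus-end protein of neurons (1.30, adjusted p = 1.1e-06), and MAP6D1, a relative of MAP6 (1.03, adjusted p = 9.1e-05), rose most, and NEDD1, which recruits the gamma-tubulin ring complex, fell by 1.15 (adjusted p = 1.3e-06). These genes were named after their values were seen. MAP7D1 was the 1 gene of this list with a difference between days in its change with 100 nM (0.51, adjusted p = 0.045), 1.22% of the list beside 2.47% of all genes and 3.87% of the well detected genes.

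In the deposited table, the mean differences from the gene values used here were -3.95 for TBCB, -3.37 for MAP2 and -1.70 for TUBE1 on the log2 scale.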
